A study of Mus musculus with 74 samples.

Results

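The liver response to Elmiron after 15 days of dosing was measured on 10 arrays of liver from male B6C3F1 mice. They were taken from a series of 74 arrays on hemangiosarcoma, a tumour of endothelial cells, in mice given fenretinide, troglitazone or Elmiron. The 10 arrays are all those whose titles name liver, day 15 and either Elmiron or the vehicle of the Elmiron study. The labels state that the time course was set up to find when proliferative or hypoxic changes begin in the tissues that develop the tumour, at doses above those of the carcinogenicity studies. Of the 10, 5 (mice 51 to 55) are labelled Elmiron, given by mouth at 1000 mg/kg daily, and 5 (mice 41, 42, 44, 46 and 47) vehicle. The age of the mice, the composition of the vehicle and the time of day of sampling are not given in the labels. The labels number each array but do not say that arrays came from separate animals, so the p-values measure the spread between these arrays. Each numbered array is called a mouse or a liver in what follows. The same study has 5 vehicle and 5 Elmiron livers on day 29, and the troglitazone study has 5 vehicle livers and 5 livers of mice given 1200 mg/kg troglitazone on day 15. Troglitazone is a thiazolidinedione.

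Elmiron is pentosan polysulfate sodium, a semi-synthetic sulfated polysaccharide that resembles heparin and is taken by mouth for bladder pain. Large sulfated polysaccharides are taken up by scavenging cells and degraded slowly in lysosomes. In the liver the scavenging cells are Kupffer cells, the resident macrophages of the sinusoids, and the sinusoidal endothelial cells that line them. Hepatocytes make up most of the tissue, so RNA of these smaller populations is a minor share of each sample.

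Total RNA was hybridised to Affymetrix mouse genome arrays, and the deposited intensities were analysed as log2 values for 18193 genes. A log2 difference of 1 is a doubling of the intensity. The levels of different genes are not compared, because each rests on its own probe set. The 16 measured hepatocyte markers averaged 14.21 to 14.41 in the 10 livers and had a median of 8.48 over the 34 fat arrays of the series. The fat marker Adipoq lay between 4.78 and 5.66 in the 10 livers and at 14.42 or above in all fat arrays. Median intensities of the 10 arrays ran from 112.6 to 119.4. No pair of arrays within a group held identical values.

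Elmiron gave no gene a level that differed from vehicle on day 15 at an adjusted p below 0.05. Of the 18193 genes, limma called 0 (0%), and the smallest adjusted p was 0.549, shared by 22 genes. At an unadjusted p below 0.05 there were 997 genes (5.48% of those tested). They comprised 601 genes that were higher with Elmiron (3.3% of all genes) and 396 that were lower (2.18%). The 5 Elmiron values lay wholly apart from the 5 vehicle values for 192 genes (1.06%), of which 136 were higher (0.748%) and 56 lower (0.308%). Every day 15 difference from vehicle given here for Elmiron is therefore one that did not pass the adjusted threshold. Cd68, Gpnmb, Clec4f, Ccl2, Pecam1, Vegfa, Mki67, Ccnd1, Cyp7a1, Lpl, Gusb and Hexa were named whatever their result, and all other genes were chosen after their values were seen.

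The intervals of the differences were narrow for most genes. The median standard error of a difference was 0.12, and the 95% interval lay within 2-fold in either direction for 99.1% of genes and within 1.5-fold for 93.5%. These shares cover all genes, dim ones included, and a narrow interval of a dim gene may not bound a change in its RNA. The differences ran from -1.21 for Tbx3 to 1.06 for Lcn2, and only these 2 genes passed 1 in size. Lcn2, an acute phase protein, was high in 1 Elmiron liver: it read 6.51, 7.15, 8.24, 7.47 and 10.71 in Elmiron mice 51 to 55 and 6.44 to 7.87 in vehicle mice. Its 95% interval ran from -1.37 to 3.49.

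**Figure D1:**
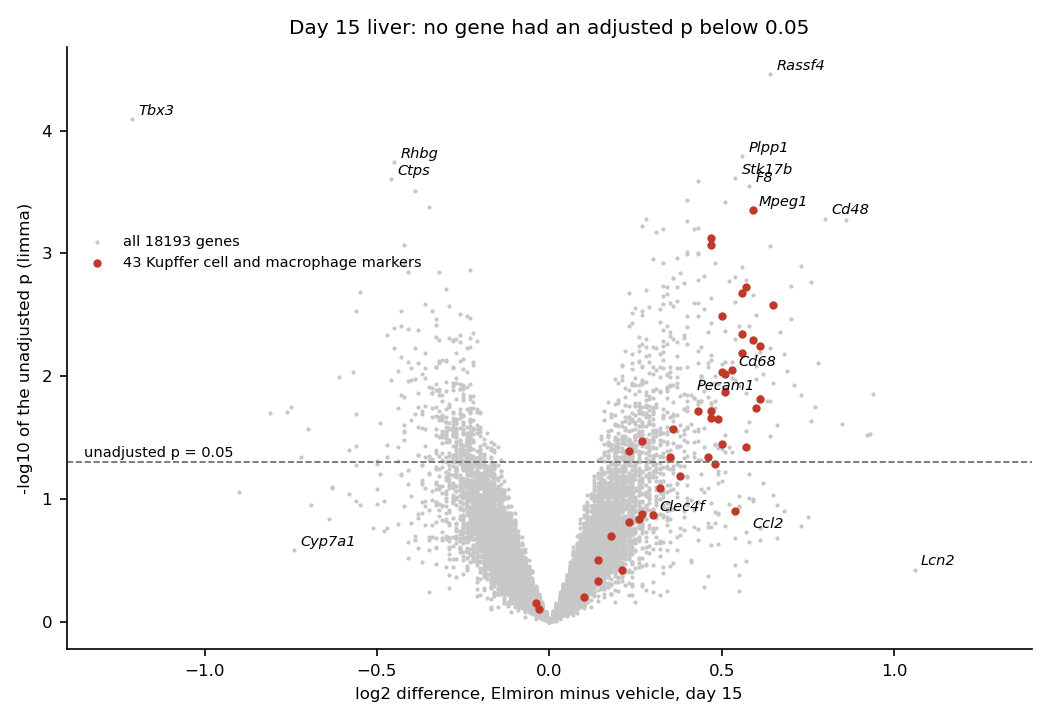
Log2 difference (Elmiron minus vehicle, day 15, x axis) against -log10 of the unadjusted limma p (y axis) for 18193 genes (grey) and for the 43 Kupffer cell and macrophage markers measured (red). No gene had an adjusted p below 0.05, and 41 of the 43 markers lie above 0.

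Kupffer cell genes gave the highest median of all 56 gene lists examined. Of 18 measured Kupffer cell markers, 17 had a higher mean with Elmiron, and 12 did so at an unadjusted p below 0.05, against 3.3% of all genes. None was lower at that level, and none was called (smallest adjusted p 0.606, limma). Without overlap between groups 5 were higher, against 0.748% of all genes. The list's median difference was 0.48, that of all genes -0.005. Members of a list come from the same livers and vary together, so their number does not add to the 5 mice in a group.

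Vsig4, a complement receptor of resident macrophages, read 9.25, 9.64, 10.00, 9.83 and 9.95 in vehicle mice 41, 42, 44, 46 and 47 and 10.41, 10.04, 10.58, 10.14 and 10.33 in Elmiron mice 51 to 55. Every Elmiron liver was above every vehicle liver, and the difference was 0.57 ± 0.16 (SE, n = 5 per group, limma adjusted p = 0.624). Slc11a1, a metal transporter of the phagosome, read 7.89, 7.72, 7.92, 7.88 and 8.11 with vehicle and 8.19, 8.19, 8.63, 8.21 and 8.63 with Elmiron. These groups did not overlap either, with mice 53 and 55 highest, and the difference was 0.47 ± 0.12 (SE, limma adjusted p = 0.606). C1qc, a chain of complement C1q made largely by macrophages, had vehicle values of 9.24 to 9.93 and Elmiron values of 10.02 to 10.66, a difference of 0.56 ± 0.16 (SE, limma adjusted p = 0.639). Timd4, a receptor for dying cells on long-lived Kupffer cells, had a difference of 0.65 ± 0.19 (SE, limma adjusted p = 0.657), with overlap between vehicle mouse 47 at 7.38 and Elmiron mouse 54 at 7.31.

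C1qa (0.50), C1qb (0.56), Cd5l, a secreted macrophage protein (0.56), and the scavenger receptor Marco (0.57) each had an unadjusted p below 0.05. Clec4f, a lectin that in mice marks Kupffer cells, read 10.27 to 10.93 with vehicle and 10.65 to 11.32 with Elmiron, and its difference of 0.30 ± 0.19 had an unadjusted limma p of 0.136. Nr1h3, the nuclear receptor LXRalpha, which hepatocytes also express, had a difference of -0.03, with a 95% interval from -0.24 to 0.19.

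General macrophage genes gave a median difference of 0.47. Of 25 measured, 24 had a higher mean with Elmiron and 16 did so at an unadjusted p below 0.05, against 3.3% of all genes. None was lower at that level, and 1 was higher without overlap between groups, against 0.748% of all genes. Mpeg1, a pore-forming protein of phagocytes, read 9.99, 9.95, 9.96, 9.86 and 9.81 in the vehicle livers and 10.13, 10.34, 11.26, 10.26 and 10.55 in the Elmiron livers. All Elmiron values were above all vehicle values, mouse 53 stood highest, and the difference was 0.59 ± 0.14 (SE, limma adjusted p = 0.549). Cd68, a lysosomal membrane protein of macrophages, read 7.41, 7.65, 8.0, 8.14 and 8.21 with vehicle and 8.26, 8.12, 9.03, 8.33 and 8.31 with Elmiron. Elmiron mouse 52 fell among the vehicle mice and mouse 53 stood well above the rest, and the difference was 0.53 ± 0.18 (SE, limma adjusted p = 0.768). The integrin chain Itgb2 (0.47), the Fc receptor chain Fcer1g (0.50) and the leukocyte tetraspanin Cd53 (0.59) had unadjusted p-values from 0.000745 to 0.00507.

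Markers of recruited and of lipid-laden macrophages had medians closer to 0. None of 13 genes of monocytes and recruited macrophages had an unadjusted p below 0.05, and their median difference was 0.03. Plac8, which is high in monocytes, had the largest difference of them, 0.40 (95% interval -0.03 to 0.83). At least 1 other gene of this list was dim, at 4.39 to 4.64 with vehicle and 4.27 to 5.29 with Elmiron. Values of such dim genes may not bound a change. Among 17 genes of lipid-laden and foamy macrophages the median was 0.09. At an unadjusted p below 0.05, 2 of them were higher (11.8%, against 3.3% of all genes). Gpnmb, a glycoprotein that accumulates in macrophages with overloaded lysosomes, read 6.16 to 6.45 with vehicle and 6.20 to 6.6 with Elmiron, a difference of 0.01 with a 95% interval from -0.21 to 0.24. All its values lie below the median log2 intensity of the arrays, 6.815 to 6.9. The gene may be near background, so this interval may not bound a change. Trem2, a lipid-sensing receptor of macrophages, had a difference of 0.21 (95% interval -0.05 to 0.47).

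Averaged over the list, the Kupffer cell genes stood at -0.29, -0.12, 0.21, 0.08 and 0.12 in vehicle mice 41, 42, 44, 46 and 47, relative to their mean. In Elmiron mice 51 to 55 they stood at 0.39, 0.21, 0.67, 0.19 and 0.59. Mice 51, 53 and 55 were above every vehicle mouse, mouse 52 was level with vehicle mouse 44, and mouse 54 was just below it. Vehicle livers of the troglitazone study on the same day ranged from -0.35 to 0.13. The macrophage genes ran from -0.19 to 0.13 with vehicle and stood at 0.41, 0.07, 0.64, 0.16 and 0.73 with Elmiron. In whole liver, more cells of a type and more RNA per cell cannot be told apart.

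Single mice moved these counts. The macrophage genes higher at an unadjusted p below 0.05 numbered 8 of 25 in place of 16 without Elmiron mouse 55, 10 without Elmiron mouse 53, and 9 without vehicle mouse 41 or vehicle mouse 42. The Kupffer cell count was 8 of 18 in place of 12 without vehicle mouse 41, the lowest of the vehicle livers for these genes. With each of the 10 mice left out in turn, the Kupffer cell median ran from 0.40 to 0.54 and the macrophage median from 0.35 to 0.55.

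**Figure D2:**
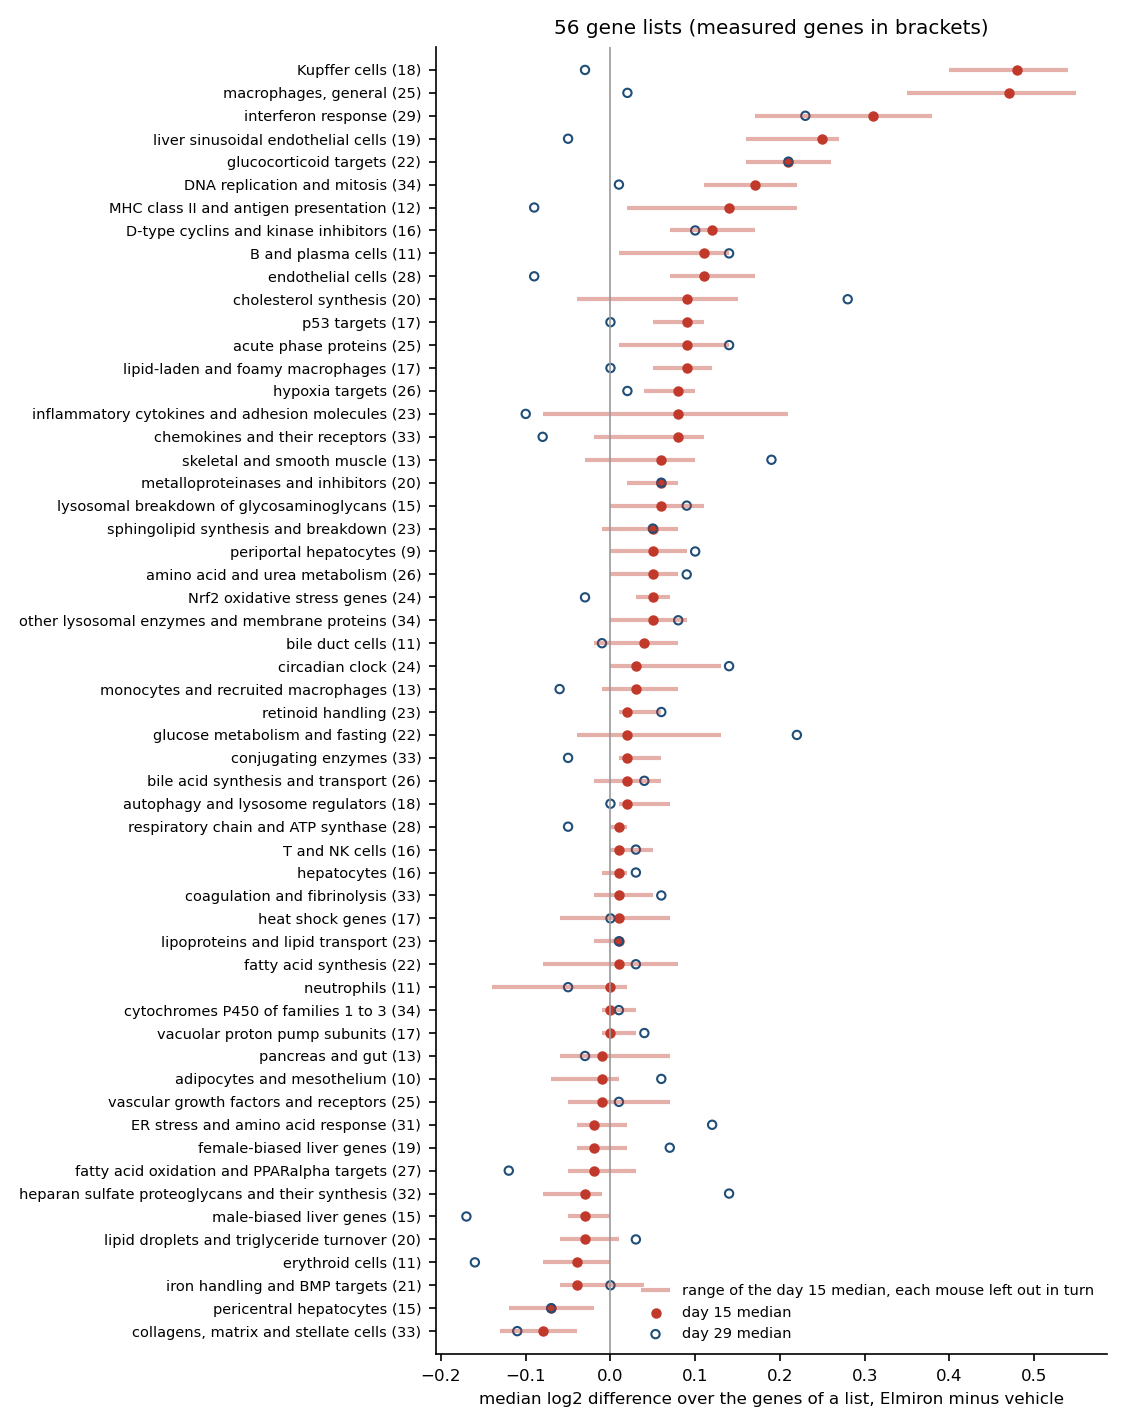
Median log2 difference (Elmiron minus vehicle, x axis) over the measured genes of each of 56 lists (y axis, number of genes in brackets) on day 15 (red, with the range over leaving out each of the 10 mice as a bar) and on day 29 (open blue). On day 15 Kupffer cells (0.48) and general macrophages (0.47) have the highest medians, and on day 29 they are at -0.03 and 0.02.

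Lists of lysosomal genes had medians near 0. For 15 enzymes that break down glycosaminoglycans, the polysaccharide class that Elmiron resembles, the median difference was 0.06. At an unadjusted p below 0.05, 1 of them was higher (6.67%, against 3.3% of all genes). That gene was the hyaluronidase Hyal2, at 0.19 (95% interval 0.00 to 0.37). Hexa, a subunit of beta-hexosaminidase, read 11.52 to 11.88 with vehicle and 11.71 to 11.92 with Elmiron, a difference of 0.06 ± 0.08 (SE). Gusb, the beta-glucuronidase, read 9.82 to 10.20 with vehicle and 9.80 to 10.30 with Elmiron, a difference of 0.06 with a 95% interval from -0.16 to 0.27. The intervals of Hexa and Gusb exclude a change of 1.5-fold in either direction.

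Of 34 other lysosomal genes, 3 were higher at an unadjusted p below 0.05 (8.82%, against 3.3% of all genes), and the median was 0.05. Ctss, a cathepsin found mainly in antigen-presenting cells, read 9.96, 10.51, 10.38, 10.47 and 10.48 with vehicle and 10.93, 10.69, 11.39, 10.75 and 11.23 with Elmiron. The groups did not overlap, and the difference was 0.64 ± 0.17 (SE, limma adjusted p = 0.606). The other two were Lgmn, the protease legumain, at 0.43 and Laptm5, a lysosomal membrane protein of blood cells, at 0.43, a sign shown by 3 of its 5 probe sets. For 17 subunits of the proton pump that acidifies lysosomes the median was 0.00, and for 18 genes of autophagy and lysosome control it was 0.02.

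Antigen presentation genes were higher on average in some Elmiron livers than in others. Their average relative to vehicle was 0.35, 0.46 and 0.48 in Elmiron mice 51, 53 and 55 and 0.03 and -0.05 in mice 52 and 54, against -0.15 to 0.11 in vehicle mice. Of 12 genes of MHC class II presentation, 4 were higher at an unadjusted p below 0.05 (33.3%, against 3.3% of all genes). The list median was 0.14. Over the members left when the dimmer 50% of genes were dropped it was 0.49, a value that covers only the brighter genes of the list. H2-Ab1, an MHC class II chain, read 8.25, 8.52, 8.70, 8.73 and 8.81 with vehicle and 9.46, 8.89, 10.11, 8.88 and 9.29 with Elmiron. All Elmiron livers were above all vehicle livers, mice 52 and 54 only slightly, and the difference was 0.73 ± 0.27 (SE, limma adjusted p = 0.814). H2-Aa (0.64), H2-Eb1 (0.48) and the invariant chain Cd74 (0.49) were the other three. The number at an unadjusted p below 0.05 was 1 without Elmiron mouse 53 and 2 without Elmiron mouse 51 or vehicle mouse 41, and the list median was 0.02 without Elmiron mouse 55.

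Interferon response genes had a median difference of 0.31. Of 29 measured, 27 had a higher mean with Elmiron, and 6 did so at an unadjusted p below 0.05 (20.7%, against 3.3% of all genes). Their average relative to vehicle was 0.73 in mouse 53 and 0.49 in mouse 55 and between 0.07 and 0.10 in the other three Elmiron mice, against -0.10 to 0.09 in vehicle mice. Without mouse 53 the count was 2 of 29 and the median 0.17, and without Elmiron mouse 52 the count was 10. Oasl2, an antiviral protein of the oligoadenylate synthetase family, read 6.34 to 6.69 with vehicle and 6.83, 7.25, 7.82, 7.04 and 7.05 with Elmiron, a difference of 0.64 ± 0.25 (SE, limma adjusted p = 0.840). Psmb8, an immunoproteasome subunit, differed by 0.46, with 1 of its 2 probe sets showing that sign, and Irf9, part of the interferon-activated transcription complex, by 0.51.

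Chemokine and acute phase genes were high in single mice. None of 33 chemokine and receptor genes and none of 25 acute phase genes had an unadjusted p below 0.05. Ccl2, which attracts monocytes, read 6.54, 6.15, 6.50, 6.28 and 9.47 in Elmiron mice 51 to 55 and 6.13 to 6.63 in vehicle mice. Its difference of 0.57 ± 0.42 (SE, limma adjusted p = 0.987) became -0.05 without mouse 55. The same mouse had the highest average of the acute phase genes, 0.84, and of the neutrophil markers, 0.55, against at most 0.21 and 0.18 in vehicle mice. Leaving out that mouse gave the lowest macrophage median of any single omission, 0.35 against 0.47, and the lowest macrophage count, 8 against 16.

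Endothelial genes were examined because hemangiosarcoma arises from endothelium. Of 19 markers of liver sinusoidal endothelial cells, 6 were higher at an unadjusted p below 0.05 (31.6%, against 3.3% of all genes). None was lower at that level, and the median difference was 0.25. The list shares 1 gene with the general macrophage list. Whether the higher values came from endothelial cells or from macrophages was not tested. F8, clotting factor VIII, which the liver's endothelium makes, read 7.70, 7.71, 8.02, 8.14 and 7.99 with vehicle and 8.34, 8.52, 8.17, 8.81 and 8.61 with Elmiron. Every Elmiron liver was above every vehicle liver, mouse 53 by a narrow margin, and the difference was 0.58 ± 0.13 (SE, limma adjusted p = 0.549). Clec1b, a lectin of sinusoidal endothelium and platelets, differed by 0.70, the fatty acid and scavenger receptor Cd36 by 0.60 and the Fc receptor Fcgr2b by 0.26. Stab2, the hyaluronan scavenger receptor of these cells, read 9.67 to 9.90 with vehicle and 9.64 to 10.22 with Elmiron, a difference of 0.01 with a 95% interval from -0.32 to 0.35.

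The list's average ran from -0.24 to 0.26 in vehicle mice and from 0.06 to 0.39 in Elmiron mice, so the groups overlapped. Leaving out vehicle mouse 41 reduced the 6 genes to 3, and leaving out vehicle mouse 44 gave 8. Of 28 general endothelial markers, 3 were higher at an unadjusted p below 0.05 (10.7%, against 3.3% of all genes). The count was 6 without vehicle mouse 44 or 46, and the median was 0.11. Pecam1, the adhesion molecule CD31, read 6.74, 6.32, 7.16, 7.20 and 7.23 with vehicle and 7.20, 7.23, 7.46, 7.56 and 7.24 with Elmiron. Vehicle mice 41, 42 and 44 were below every Elmiron liver and vehicle mice 46 and 47 lay within the Elmiron range, and the difference was 0.41 ± 0.15 (SE, limma adjusted p = 0.812). The sialomucin Emcn differed by 0.56 (limma adjusted p = 0.624) and the adrenomedullin coreceptor Ramp2 by 0.35 (limma adjusted p = 0.715), while Kdr, the main VEGF receptor, had a difference of -0.02 (95% interval -0.31 to 0.26).

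**Figure D3:**
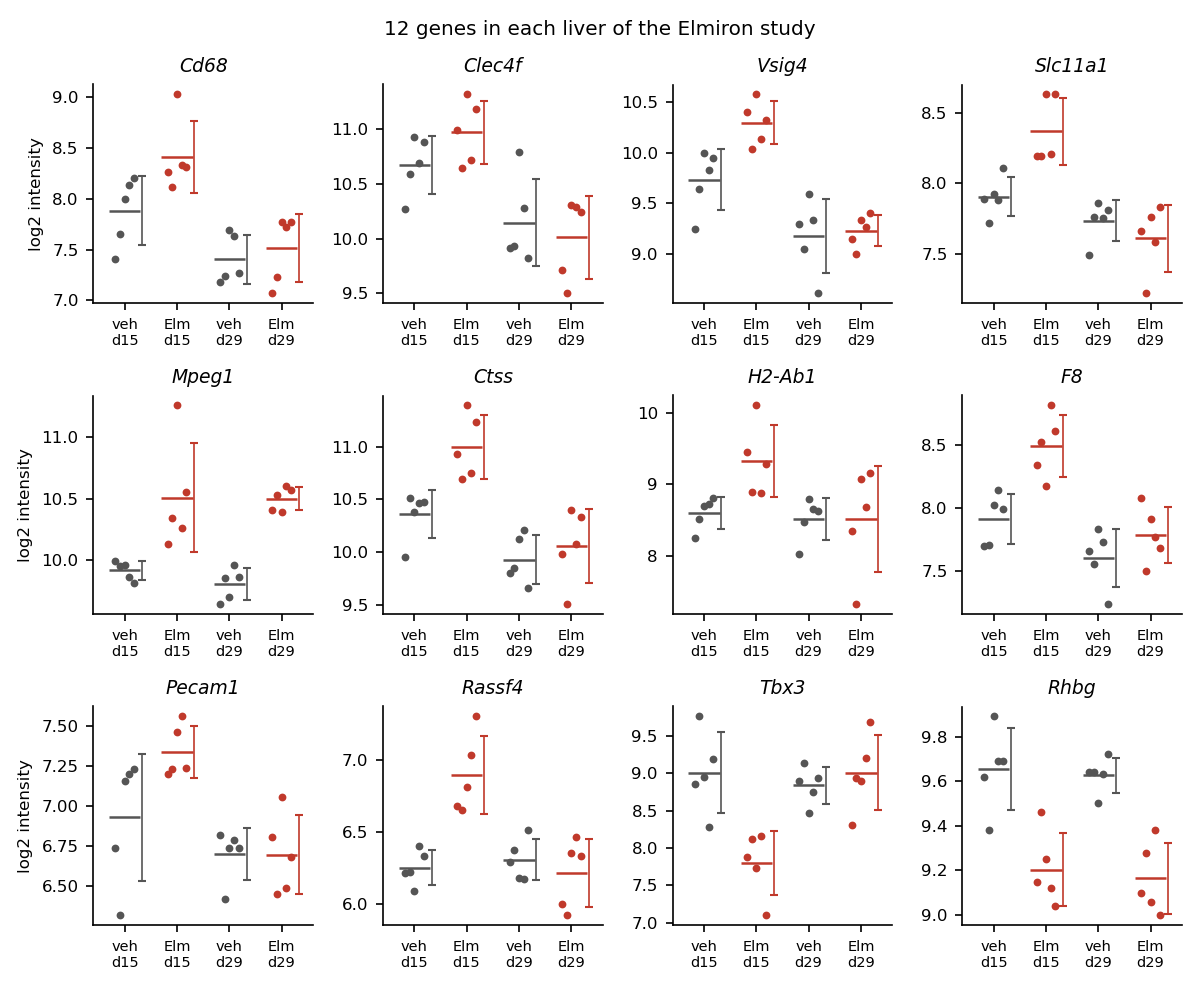
Log2 intensity (y axis, each panel on its own scale) of 12 genes in each liver of the Elmiron study, in vehicle (grey) and Elmiron (red) groups on day 15 and day 29, with group means as lines and SD as bars (n = 5). Vsig4, Slc11a1, Mpeg1, Ctss, H2-Ab1, F8 and Rassf4 lie higher and Tbx3 lower in all 5 Elmiron livers on day 15, and Mpeg1 and Rhbg show a like difference on day 29.

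Angiogenic and hypoxia genes showed small differences. For 25 vascular growth factors and receptors the list median was -0.01. At an unadjusted p below 0.05, 2 of them were higher (8%, against 3.3% of all genes). These were Angptl4, a lipase inhibitor that fasting and hypoxia raise, at 0.34 ± 0.11 (SE, limma adjusted p = 0.696), and Adm, the vasodilator adrenomedullin, at 0.43 ± 0.21, the latter highest in mouse 55. Vegfa, the main endothelial growth factor, read 8.89 to 9.43 with vehicle and 9.24 to 9.54 with Elmiron, a difference of 0.18 (95% interval -0.03 to 0.39). Of 26 hypoxia targets, 3 were higher at an unadjusted p below 0.05 (11.5%, against 3.3% of all genes), with a median of 0.08. The histone demethylase Kdm3a (0.37) and the glycolytic enzyme Hk2 (0.34) were among them.

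Proliferation genes had small differences from vehicle. Of 34 genes of DNA replication and mitosis, 25 had a higher mean with Elmiron, with a median of 0.17. At an unadjusted p below 0.05, 8 were higher (23.5%, against 3.3% of all genes) and none lower. Their average was 0.37 in mouse 53 and 0.03 to 0.13 in the other Elmiron mice, against -0.08 to 0.09 in vehicle mice. Mki67, the proliferation antigen Ki-67, read 5.76, 5.57, 5.82, 6.09 and 6.19 with vehicle and 6.02, 6.18, 6.92, 5.82 and 6.45 with Elmiron. The groups overlapped and the difference was 0.39 ± 0.18 (SE, limma adjusted p = 0.902). Cdk1, the kinase that starts mitosis, differed by 0.37 (limma adjusted p = 0.715), the replication helicase subunit Mcm6 by 0.38 and cyclin Ccnb2 by 0.39. The vehicle values of Mki67 and all values of Ccnb2 lie below the median log2 intensity of the arrays, 6.815 to 6.9, and may be near background. Top2a, a DNA topoisomerase, differed by 0.59, but 1 of its 3 probe sets showed that sign. Ccnd1, the cyclin that starts the hepatocyte cycle, had a difference of 0.16 (95% interval -0.36 to 0.68). The count of 8 was 4 without Elmiron mouse 53 or vehicle mouse 41 and 5 without vehicle mouse 42. It was 12 without vehicle mouse 47 and 12 with array weights.

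Of 17 p53 targets, 2 were higher at an unadjusted p below 0.05 (11.8%, against 3.3% of all genes). The list median was 0.09, with single genes down to -0.37. Cdkn1a, the cell cycle inhibitor p21, read 9.62, 10.12, 11.60, 9.93 and 9.67 in Elmiron mice 51 to 55 and 8.65 to 10.28 in vehicle mice. Its difference of 0.61 had a 95% interval from -0.38 to 1.61. Trp53inp1, a p53 target, differed by 0.49, with mouse 53 at 12.13 and the other Elmiron mice at 11.10 to 11.32. Mouse 53 was the highest liver for both genes but the lowest for Bbc3, a p53 target that promotes apoptosis, which read 8.30, 8.62, 7.66, 8.09 and 7.78 in Elmiron mice 51 to 55 and 8.10 to 8.72 in vehicle mice. Myc, a growth-promoting transcription factor, read 7.47 to 8.5 with vehicle and 8.29 to 8.63 with Elmiron, a difference of 0.51 ± 0.16 (SE, limma adjusted p = 0.715).

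Lists of hepatocyte genes had medians near 0. The 16 hepatocyte markers had a median difference of 0.01, and 0 of them had an unadjusted p below 0.05. Their averages of 14.21 to 14.41 lie near the top of the intensity range, which may limit the change that can be seen. The 34 cytochromes P450 of families 1 to 3, which metabolise drugs, had a median of 0.00 and 0 such genes, as did 27 genes of fatty acid oxidation with a median of -0.02. Cholesterol synthesis had a median of 0.09 over 20 genes and 0 such genes. Cyp7a1, the rate-limiting enzyme of bile acid synthesis, read 10.49, 12.07, 11.56, 12.09 and 9.30 with vehicle and 11.35, 9.78, 10.53, 10.43 and 9.74 with Elmiron. Both groups spread widely, and the difference was -0.74 ± 0.63 (SE, limma adjusted p = 0.993). Lpl, lipoprotein lipase, had a difference of -0.11 (95% interval -0.69 to 0.48). Akr1d1, a reductase of bile acid and steroid metabolism, read 10.98 to 11.29 with vehicle and 11.33 to 11.85 with Elmiron, a difference of 0.40 ± 0.10 (SE, limma adjusted p = 0.549).

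The lowest difference belonged to a gene of pericentral hepatocytes, those next to the central vein. Tbx3, a transcription factor regulated by Wnt signals there, read 8.86, 9.76, 8.95, 8.28 and 9.19 with vehicle and 7.88, 8.12, 7.73, 8.16 and 7.10 with Elmiron. Every Elmiron liver was below every vehicle liver, and the difference was -1.21 ± 0.25 (SE, limma adjusted p = 0.549). Only 3 of its 5 probe sets had that sign. Rhbg, an ammonium transporter of pericentral hepatocytes, read 9.62, 9.38, 9.89, 9.69 and 9.69 with vehicle and 9.15, 9.46, 9.25, 9.12 and 9.04 with Elmiron. Mouse 52 alone entered the vehicle range, and the difference was -0.45 ± 0.10 (SE, limma adjusted p = 0.549).

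Other pericentral genes lay nearer 0. Of 15, these 2 were lower at an unadjusted p below 0.05, against 2.18% of all genes. None was higher at that level, and the median was -0.07. Glul, glutamine synthetase, had a difference of -0.12 (95% interval -0.46 to 0.22) and Cyp2e1, an alcohol-metabolising cytochrome, of 0.03 (95% interval -0.09 to 0.15).

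Clotting and proteoglycan genes were examined because Elmiron resembles heparin. For 33 genes of coagulation and fibrinolysis the median was 0.01. At an unadjusted p below 0.05, 2 were higher (6.06%, against 3.3% of all genes) and 1 lower (against 2.18%). Besides F8 these were Tfpi, an endothelial inhibitor of clotting, at 0.57 ± 0.21 (SE), and F5, clotting factor V, at -0.37 ± 0.15. Of 32 genes of heparan sulfate proteoglycans and their synthesis, 1 was lower, the proteoglycan Gpc3 at -0.28 ± 0.10, and the median was -0.03. Collagens, matrix and stellate cell genes had a median of -0.08 over 33 genes, with 1 lower at that level. The share of all genes lower at that level was 2.18%.

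Outside these lists, the smallest p belonged to Rassf4, a Ras association domain protein. It read 6.21, 6.22, 6.09, 6.40 and 6.33 with vehicle and 6.68, 6.65, 6.81, 7.03 and 7.30 with Elmiron. The groups did not overlap, all 3 probe sets had the same sign, and the difference was 0.64 ± 0.12 (SE, limma adjusted p = 0.549). By p, Rassf4 and Tbx3 were followed by the lipid phosphatase Plpp1 (0.56), then Rhbg, the kinase Stk17b (0.54), the CTP synthase Ctps (-0.46) and the carnitine synthesis enzyme Tmlhe (0.43). Among genes without overlap the leukocyte surface protein Cd48 had the highest difference, 0.80 ± 0.20, followed by Dock10, a guanine nucleotide exchange factor of leukocytes, at 0.76, a sign shown by 1 of its 2 probe sets. At the lower end were Cpox, an enzyme of heme synthesis, at -0.56, Ints2, a subunit of the Integrator complex, at -0.55 and the mitochondrial carrier Slc25a45 at -0.41. For Plpp1 and Cpox 2 of 3 probe sets had the sign given. The vehicle values of Rassf4 and Cd48 lie below the median log2 intensity of the arrays, 6.815 to 6.9, so these genes may be near background in vehicle livers.

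On day 29 the medians of the macrophage lists were near 0. The Kupffer cell median was -0.03 and the macrophage median 0.02, with averages of -0.43 to -0.03 in vehicle livers and -0.65 to -0.16 in Elmiron livers for the Kupffer cell genes. Limma called 1 gene on day 29 (0.0055% of those tested) and 1510 had an unadjusted p below 0.05. The called gene was Id1, a target of BMP signalling, at -1.18 ± 0.18 (SE, adjusted p = 0.0252). On day 15 Id1 read 8.55 to 9.55 with vehicle and 8.64 to 9.55 with Elmiron, a difference of 0.26 (limma adjusted p = 0.977).

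The difference between days was tested directly and 0 genes were called (0%), the smallest adjusted p being 0.205, for Id1. At an unadjusted p below 0.05 there were 981 genes (5.39%). Among the 18 Kupffer cell genes the smallest adjusted p for a difference between days was 0.821, and 7 had an unadjusted p below 0.05. Of the 601 genes higher on day 15 at an unadjusted p below 0.05, 45 were also higher on day 29 (7.49% of the day 15 genes, 5.61% of the 802 on day 29), and 10 were lower on day 29; 4.41% of all genes were higher on day 29 at that level. Of the 396 lower genes, 24 were also lower on day 29 (6.06% of the day 15 genes, 3.39% of the 708 on day 29) and 21 were higher, with 3.89% of all genes lower on that day.

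A few genes had like values on both days, each day with vehicle mice of its own. Mpeg1 read 9.64, 9.85, 9.70, 9.96 and 9.86 in day 29 vehicle livers and 10.41, 10.53, 10.39, 10.60 and 10.57 in day 29 Elmiron livers. The groups did not overlap on either day, and the day 29 difference was 0.70 (limma adjusted p = 0.179). Rhbg read 9.64, 9.64, 9.5, 9.63 and 9.72 with vehicle and 9.10, 9.28, 9.06, 9.38 and 9.0 with Elmiron on day 29, a difference of -0.47 (limma adjusted p = 0.242). Angptl4 differed by 0.30 on day 29, against 0.34 on day 15, and Adm by 0.59, against 0.43. Tbx3 differed by 0.17 and Rassf4 by -0.09 on day 29.

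**Figure D4:**
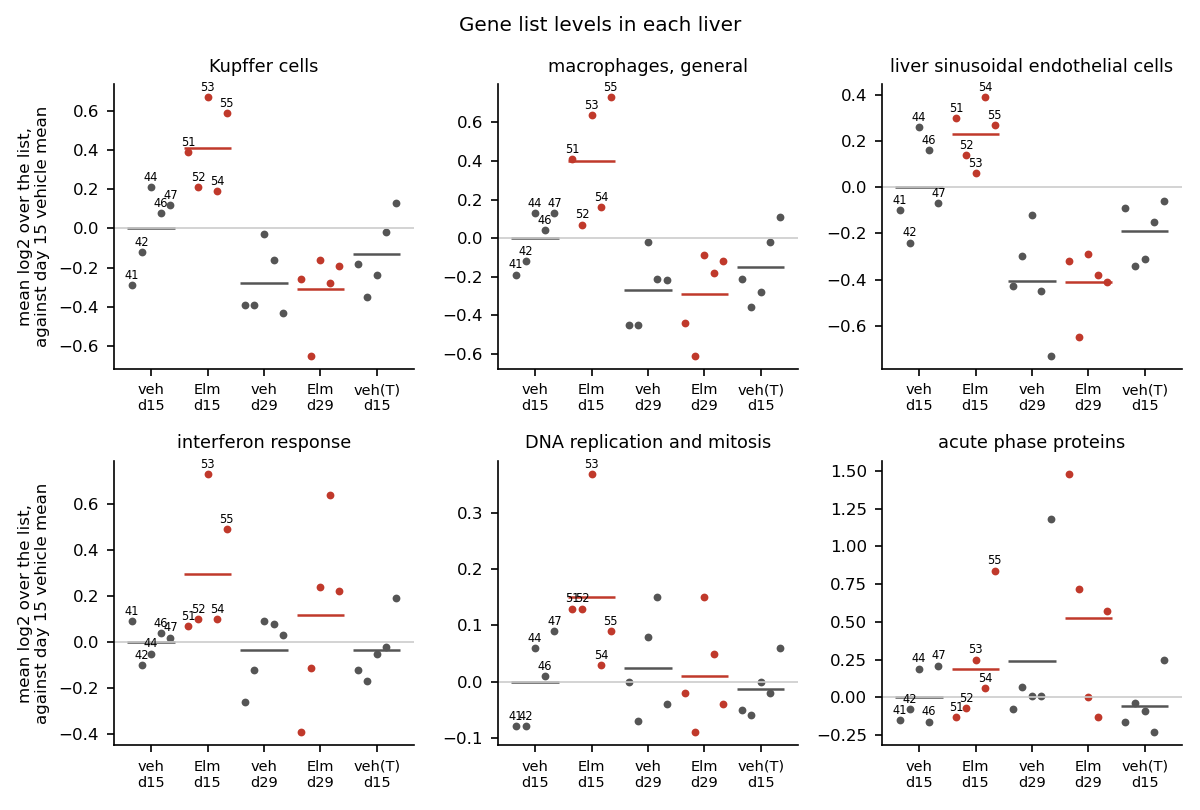
Average log2 level of 6 gene lists (y axis, relative to the day 15 vehicle mean of the Elmiron study) in each liver, by group on the x axis: vehicle and Elmiron on days 15 and 29, and day 15 vehicle livers of the troglitazone study, marked veh(T). Lines are means of 5 mice and numbers name the day 15 mice. Mice 53 and 55 lead the macrophage and interferon lists. The Kupffer cell, macrophage and sinusoidal endothelial lists are below 0 in all day 29 livers, vehicle and Elmiron.

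Troglitazone, a compound of another class given at another dose in another study, was set beside Elmiron at the same time point, so compound, dose and study cannot be told apart. The difference between their effects was called for 1 gene (0.0055% of those tested), with 1087 at an unadjusted p below 0.05 (5.97%). That gene was Pltp, the phospholipid transfer protein, which differed by 1.21 from vehicle with troglitazone and by 0.08 with Elmiron (95% interval for Elmiron -0.19 to 0.34). The difference of the effects was -1.13 (limma adjusted p = 0.0156), and no gene was called when a gene's probe sets were averaged, or without Elmiron mouse 52, vehicle mouse 42 of the troglitazone study, or troglitazone mouse 54, 55 or 56. The Kupffer cell genes had a median of 0.25 and the macrophage genes of 0.20 with troglitazone, against 0.48 and 0.47 with Elmiron. With troglitazone 1 of 18 and 3 of 25 were higher at an unadjusted p below 0.05, where 3.72% of all genes differed either way. List averages in the troglitazone livers ran from -0.18 to 0.63 (median 0.04) for Kupffer cell genes and from -0.20 to 0.64 (median 0.01) for macrophage genes. Their vehicle livers ran from -0.35 to 0.13 and from -0.36 to 0.11. None of either list was called for a difference between the compounds. For the antigen presentation genes the median was 0.16 with troglitazone and 0.14 with Elmiron.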

How the data were processed

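Arrays were processed with RMA, per the submitters' processing notes, which give no version; the deposited intensities are linear (7.44 to 39426) and were log2-transformed here. RMA as a method corrects background and quantile-normalizes arrays, which removes shifts common to a whole array. Of 45101 probe sets, 34945 carried a single symbol in the platform annotation, 932 several and 9160 none, and 64 were controls. Where a symbol had several probe sets, the brightest on average in the 74 arrays was kept, leaving 18193 genes. Limma 3.58.1 (R 4.3.3, lmFit and eBayes) was fitted to the 20 livers of the Elmiron study with a mean per group, and to 40 livers for troglitazone; p-values were adjusted by Benjamini-Hochberg over all genes, with calls at 0.05. The fit was tested on simulated data. Within groups arrays correlated at 0.983 to 0.9952. The number of arrays limits the precision, and the labels give no batch or scan date.

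The named genes were 12 preset genes, given in the report, and any called gene, of which there were none on day 15. The other genes named were chosen among the 12 smallest p-values, the largest differences without overlap, the smallest p-values of each list, and single members given as contrasts. The 56 lists (1198 of 1321 entries measured) and the choice of samples were made with earlier results of these data known. A list's average is its mean log2 level minus the day 15 vehicle mean. Alternatives covered normalization, filtering, probe set choice, the variance model and each array left out. Figures were drawn with matplotlib.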

Additional observations from a re-analysis of the deposited data

Results flagged for a closer look

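In 184 groups of 5 values, those of the genes named and of 9 list averages in the 2 day 15 groups, 15 values stood apart from the other 4 by more than Dixon's 95% criterion; chance flags about 1 in 20 groups, and the genes are not independent. Elmiron mouse 53 accounted for 5 of them: Cd68 at 9.03 (others 8.12 to 8.33), Ifit2, an interferon-induced gene, at 6.86 (others 6.03 to 6.19), Cdkn1a at 11.6 (others 9.62 to 10.12), Trp53inp1 at 12.13 (others 11.10 to 11.32), and, on the low side, Cd36 at 7.78 (others 8.28 to 8.47). Vehicle mouse 41 was low for 4 genes of macrophages and sinusoidal cells: C1qc at 9.24 (others 9.78 to 9.93), Fcer1g at 8.91 (others 9.22 to 9.31), Ctss at 9.96 (others 10.38 to 10.51) and Fcgr2b at 9.57 (others 9.86 to 9.90). Elmiron mouse 55 stood high for Ccl2 at 9.47 (others 6.15 to 6.54) and Adm at 8.70 (others 7.83 to 8.08). Vehicle mouse 42 stood low for Dock10 at 5.28 (others 6.10 to 6.37) and Tfpi at 6.76 (others 7.65 to 7.98). Vehicle mouse 46 stood low for Gpnmb at 6.16 (others 6.37 to 6.45), and Elmiron mouse 54 high for Stab2 at 10.22 (others 9.64 to 9.80).

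Pltp differed between compounds: the Elmiron difference minus the troglitazone difference was -1.13 on day 15 (limma adjusted p = 0.0156), with values of 0.08 and 1.21.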

How the results depend on the processing

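The count of genes called on day 15 was 0 under all 20 alternatives. They covered the dim-gene filter, quantile normalization, median centring, 3 other uses of probe sets, trended and robust eBayes and array weights. The rest were the 2 groups alone, the 1.5-fold threshold and leaving out each of the 10 arrays. The 1.5-fold threshold can only remove calls of a main fit, so where that fit called 0 its outcome was fixed in advance. Under the others the smallest limma adjusted p ran from 0.186 (without Elmiron mouse 52) to 0.836 (without Elmiron mouse 53). With 0 genes called, no list member could be called either. The number at an unadjusted p below 0.05 (an alternative chosen after seeing the data) was 588 with the dimmer genes dropped, as fewer genes were tested, 2276 over single probe sets, and 630 (without vehicle mouse 42) to 1229 (without vehicle mouse 46) with an array left out, against 997. For the difference between days 0 genes were called under every alternative except without vehicle mouse 47, which gave 1 (Id1, adjusted p 0.00453); leaving out arrays gave 0 to 1. For Elmiron against troglitazone, quantile normalization and array weights each gave 2 genes, averaging probe sets 0, and leaving out arrays 0 to 2; the cause was not tested.

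Of 83 genes followed, 8 changed sign under some alternative. With a mouse left out in turn they ranged over -0.09 to 0.06 for Stab2 (-0.03 with array weights), 0.00 to 0.09 for Hexa (just below 0 before rounding), -0.09 to 0.06 for Kdr, -0.04 to 0.06 for Gpnmb, -0.07 to 0.02 for Nr1h3, -0.29 to 0.04 for Lpl, -0.01 to 0.12 for Gusb and -0.05 to 0.78 for Ccl2, the last lowest without Elmiron mouse 55. Of 1008 list medians under other settings, 996 moved by less than 1 SD between mice. Leaving out a single mouse shifts a group's mean by only a part of that SD. Those settings could therefore hardly exceed it, and this count says little about how stable the medians are. No paired analysis was possible because vehicle and Elmiron mice share no numbers. Probe sets near background limit what the values of dim genes can show.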
